A study of Arabidopsis thaliana with 11 samples.

Results

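Auxin synthesis was followed here through 4 probe sets, short-oligonucleotide probe groups that each report 1 gene on the Affymetrix ATH1 array of Arabidopsis thaliana. They stand for YUC2 (AT4G13260), YUC4 (AT5G11320), YUC6 (AT5G25620) and the amidase-family gene AT4G37560. These are 4 of the 22810 rows of the expression table, and all 4 were among the 17910 probe sets kept by a filter on low values (log2 expression of at least 4 on at least 4 arrays). They were picked by name with their levels in the mutants and the controls already known, so those levels are a description. Where the number of these genes past a threshold against the controls is counted, the share of all probe sets stands beside it, and the count is no evidence about them. The locus names place YUC2 and AT4G37560 on chromosome 4, and YUC4 and YUC6 on chromosome 5.

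RNA came from inflorescences in the Landsberg erecta (Ler) background, sampled 30 days after sowing and holding flowers of stage 12 or younger. In the nga quadruple mutant (2 arrays), all 4 NGATHA genes carry a mutant allele, nga1-1 together with nga2-1, nga3-1 and nga4-1. These genes encode B3-domain transcription factors of style and stigma development. In amiR-NGA plants (35S:miR-NGA; 2 arrays) an artificial microRNA against nga1 to nga4 is driven by the 35S promoter, which is active in most tissues and not only where NGATHA genes act. The controls were 7 arrays labelled wild type, of which replicates 2, 3 and 4 carry a note of long days. Separate plantings are not named in the labels, and p-values therefore reflect the spread between these arrays, which may be technical. The sources used here do not give how many plants were pooled for an array or how many transgenic lines the amiR-NGA arrays represent.

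Indole-3-acetic acid is the main natural auxin. Its main route in plants has 2 steps: TAA aminotransferases turn tryptophan into indole-3-pyruvate, and YUC flavin monooxygenases turn that into indole-3-acetic acid. The YUC step is rate-limiting, and the genes act redundantly in flowers: Arabidopsis plants without YUC2 and YUC6 have defective stamens and pollen, and YUC4 acts at organ tips and with YUC1 in forming floral organs. SHI/STY-family proteins are known activators of YUC4, and auxin made at the tip of the gynoecium patterns the style. In the indole-3-acetamide route, amidases release indole-3-acetic acid from its amide, and AT4G37560 is placed in that route here.

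The arrays had limits that touch every value below. The level of NGA1 did not follow the labels: 6.95 and 6.50 in the quadruple mutant and 5.02 and 4.88 in amiR-NGA, against at least 10.50 on wild-type replicates 5 to 7 but 5.60 to 5.99 on wild-type replicates 1 to 4. The controls are therefore called the arrays labelled wild type. For NGA3 and NGA4, each of the 4 nga-deficient arrays lay below each of the 7, as for 4.32% of kept probe sets. NGA2 followed the labels in the quadruple mutant alone: it measured 4.68 and 4.77 there and 5.34 and 5.47 in amiR-NGA, against 5.19 to 5.52 on the controls. The actin control signal was 2.05 to 2.11 higher at the 3′ end than at the 5′ end, in log2, on quadruple mutant replicate 1 and wild-type replicates 1 and 2, and 1.09 to 1.31 higher on the other 8 arrays. An older actin control set did not mark these 3 arrays in the same way. It gave 4.17 on quadruple mutant replicate 1, within the 4.05 to 4.35 of the other 8 arrays, and lower values of 3.45 and 3.74 on wild-type replicates 1 and 2. The 3 arrays also had the lowest array medians, 6.08 to 6.15 against 6.22 to 6.27 on the other 8. Of 13 floral organ identity genes, 0 had a probe set of 1 gene in the annotation used, so the tissue could not be checked through them. In bulk RNA, fewer cells of a type and less RNA per cell cannot be told apart.

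AT4G37560 was the member whose level separated the genotypes. It measured 4.30 and 4.56 (log2 expression) on the 2 quadruple mutant arrays and 4.21 and 4.70 on the 2 amiR-NGA arrays. On the arrays labelled wild type it ran between 6.13 and 7.12, with a median of 6.33. All 4 nga-deficient arrays lay below all 7 controls, with a gap of 1.43 between the nearest arrays. Such complete separation downward was seen for 4.32% of the kept probe sets. The nga-deficient mean was 4.44 ± 0.23 (SD, n = 4), against 6.43 ± 0.36 (n = 7) on the arrays labelled wild type, a log2 difference of -1.99 (SE 0.18) or 3.96-fold lower. Of the 17910 kept probe sets, 15 fell by at least as much, itself included (0.0838%). AT4G37560 was picked with this difference known, so nothing is read from that rank. Within an array, 27.5% of probe sets lay below it where it ranked lowest and 64.3% where it ranked highest. Its nga-deficient levels lay near the lower quartile of an array (4.04 to 4.27), so the size of the fall was measured with 1 side at the dim end.

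AT4G37560 was low in each genotype taken alone. The log2 difference against the arrays labelled wild type was -2.00 (SE 0.24) for the quadruple mutant and -1.97 (SE 0.24) for amiR-NGA, 2 comparisons that share their control arrays. The count past the threshold (limma adjusted p below 0.05) was 1 of the 4 members, this gene, with both genotypes as 1 group (4.42% of all kept probe sets), with the quadruple mutant alone (4.17%) and with amiR-NGA alone (0.932%). Since it was chosen with these differences known, nothing is read from that count. The count was 0 of 4 without quadruple mutant replicate 1 in the quadruple mutant comparison and without either amiR-NGA array in the amiR-NGA comparison. AT4G37560 was highest on wild-type replicates 2 and 1 (7.12 and 6.67), both arrays of high actin difference. It was at least 6.33 on wild-type replicates 1 to 4 and at most 6.20 on replicates 5 to 7, the same division of the controls as for NGA1. The part of that division in its level was not tested. The nga-deficient log2 difference was -1.75 when the 3 arrays of high actin difference were dropped.

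**Figure D1:**
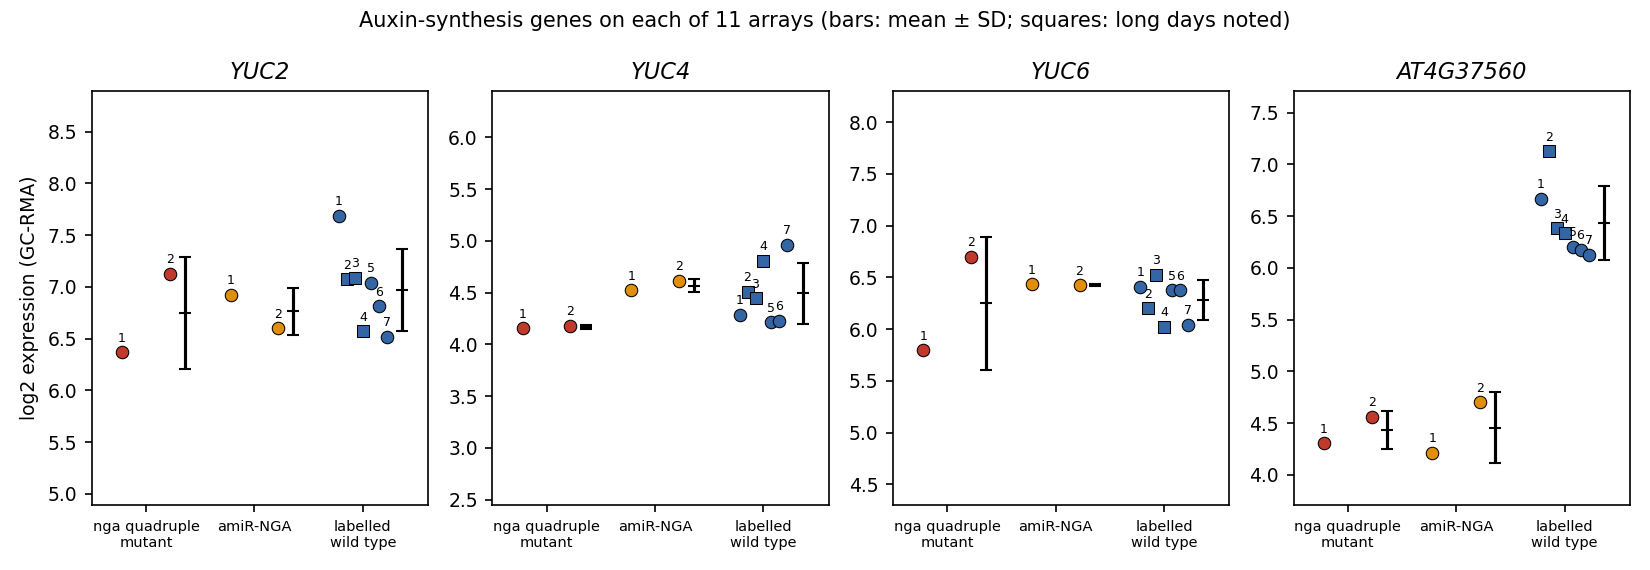
log2 expression (GC-RMA, vertical axes spanning 4 log2 units each) of YUC2, YUC4, YUC6 and AT4G37560 on every array, with the nga quadruple mutant left, amiR-NGA in the middle and the arrays labelled wild type right. Points are arrays with their replicate number, squares are arrays with the long-days note, and bars are mean ± SD. The 4 nga-deficient arrays separate from the 7 others for AT4G37560, with a gap of 1.43, and overlap them for YUC2 and YUC6.

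Leaf photosynthesis genes were set beside AT4G37560, from a list chosen with earlier results of these data known. Their counts are therefore a description. Of 6 listed, 4 had a kept probe set (LHCB4.1, LHCB4.2, RCA and HPR) and 3 of these fell in nga-deficient inflorescences (limma adjusted p below 0.05, which 3.09% of all kept probe sets passed downward), LHCB4.1 being the exception at -0.36 (adjusted p = 0.115). In each genotype alone 2 of the 4 passed downward, beside 2.23% of kept probe sets in the quadruple mutant and 0.815% in amiR-NGA. The summed linear signal of the 4 genes was 12647 to 15599 on the 4 nga-deficient arrays and 18662 to 24163 on the 7 controls. The summed signal of 8 anther and pollen markers, most of it from the tapetal gene A9, overlapped at 4318 to 5641 on the nga-deficient arrays and 4222 to 6570 on the controls. With both genotypes as 1 group 0 of the 8 passed. In the quadruple mutant 1 of the 8 rose, where 1.94% of all kept probe sets did: AGL104, a MADS-box gene of pollen, by 1.57 (SE 0.34, limma adjusted p = 0.0282). Its call ended without quadruple mutant replicate 1 (1.06, adjusted p = 0.497), without wild-type replicate 3 (adjusted p = 0.0565), with the 3 high-actin arrays removed (1.17, adjusted p = 0.228) and with the replicate block (adjusted p = 0.0646). The related AGL66 differed there by 1.38 (adjusted p = 0.0539). The part of green tissue or of anthers in the level of AT4G37560 was not tested.

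The protein-coding locus just before AT4G37560 in the RefSeq gene table (TAIR10.1), AT4G37550, was lower as well. Both loci stood on the list of amide and nitrile routes, and of its 7 entries these were the 2 with a kept probe set. The list was chosen with earlier results of these data known, so the fall of AT4G37550 is a description. AT4G37550 measured 8.92 and 9.24 on the quadruple mutant arrays and 9.29 and 9.53 on the amiR-NGA arrays, against 9.83 to 10.66 (median 10.24) on the arrays labelled wild type. The groups again did not overlap, as for 4.32% of kept probe sets, with a smaller gap of 0.29. Its nga-deficient mean was 9.25 ± 0.25 (SD, n = 4), against 10.25 ± 0.30 (n = 7), and it fell by 1.00 on the log2 scale (SE 0.17, 2.01-fold, limma adjusted p = 0.00727). That call held in all 15 alternatives run for it, with limma adjusted p between 0.00545 and 0.0371. The size moved, to -0.77 without the 3 arrays of high actin difference, -0.87 with the long-days covariate and -1.32 with the replicate block. The fall was 1.17 in the quadruple mutant (SE 0.21, adjusted p = 0.0127). In amiR-NGA the difference was -0.84 (SE 0.21) and did not pass (adjusted p = 0.0988), while the difference between the 2 genotypes was -0.33 (SE 0.26, adjusted p = 0.823).

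AT4G37550 and AT4G37560 also varied together among the control arrays. Over the 7 arrays labelled wild type Pearson's r was 0.823 (exact two-sided permutation p = 0.0161) and Spearman's rho was 0.893 (exact p = 0.0123). This was 1 relation, chosen after the values were seen. Without the 2 arrays farthest from the median of AT4G37560, r was 0.647. Both were highest on wild-type replicate 2, followed by replicate 1, the 2 control arrays of high actin difference. Each locus was also higher on every control array of low NGA1 than on every control array of high NGA1. For AT4G37550 the margin was narrow (10.24 against 10.22). The r pools these unlike controls, and its permutation treats the 7 arrays as exchangeable. The part of that division in r was not tested. Whether probes of one locus also bind transcripts of the other was not tested. The RefSeq table lists a long non-coding RNA, AT4G37553, that overlaps AT4G37560, and their signals cannot be told apart without the strand of the probes.

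By the closeness of their centred profiles over the 11 arrays, 5 genes were most like AT4G37560 among 10057 kept genes with a probe set of their own. The measure was the root mean square difference of log2 values after each gene's mean was removed, and it was computed for AT4G37560 because the SD of each YUC gene over the arrays was below 0.5. AT4G01460 was closest (0.208), with log2 levels of 5.14 to 5.51 on the nga-deficient arrays and 6.73 to 7.58 on the controls. AT3G19030 came next (0.270), at 4.86 to 5.19 on the nga-deficient arrays and 6.19 to 7.37 on the controls. The other three were NGA4 (0.357), itself a NGATHA gene, HPR (0.404), the hydroxypyruvate reductase of photorespiration, and AT1G67910 (0.454). Their nga-deficient log2 differences were -1.49 for NGA4, -1.24 for HPR and -1.26 for AT1G67910. For each of the 5, every nga-deficient array lay below every control, which a measure dominated by the group difference selects for. Such separation was seen for 4.32% of kept probe sets.

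**Figure D2:**
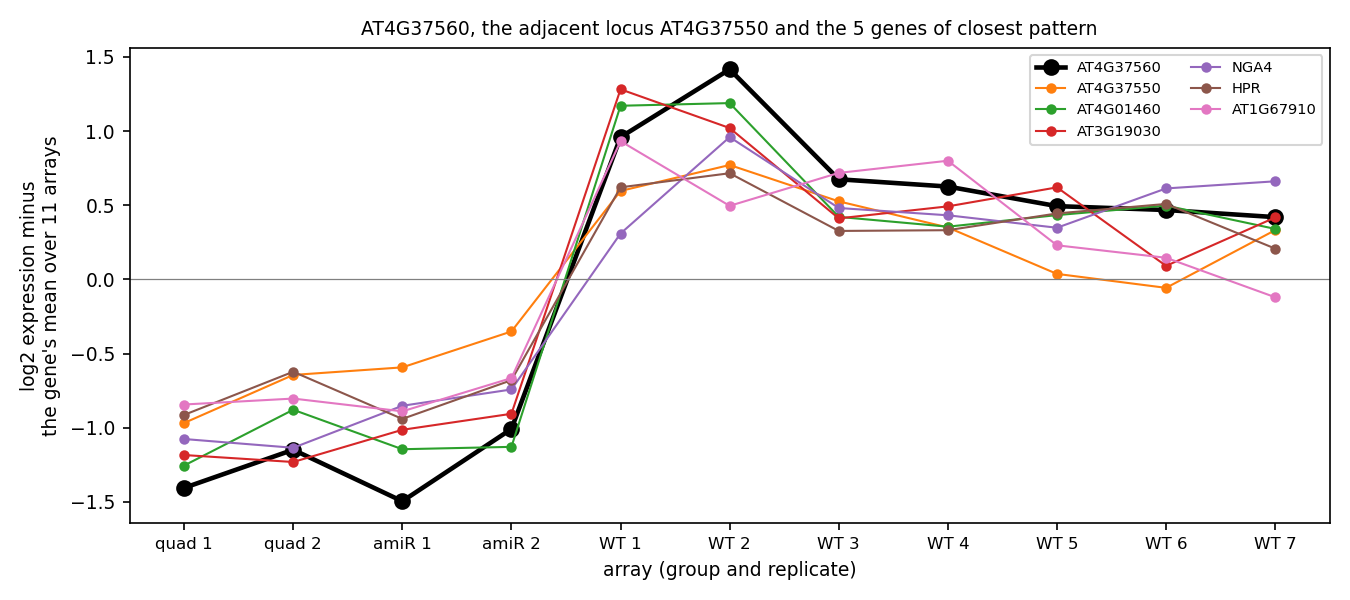
Centred log2 expression (each gene's mean over 11 arrays removed) of AT4G37560 in black, the adjacent locus AT4G37550 and the 5 genes of closest profile, with arrays on the horizontal axis from the quadruple mutant (quad) and amiR-NGA (amiR) at the left to the arrays labelled wild type (WT) at the right. AT4G37560 and AT4G01460, which differ by a root mean square of 0.208, peak together on wild-type replicates 1 and 2.

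The YUC genes gave no comparable separation. YUC2 had 52.8% to 73.3% of the probe sets of an array below it. It measured 6.37 and 7.13 on the quadruple mutant arrays and 6.92 and 6.60 on the amiR-NGA arrays, against 6.52 to 7.69 (median 7.04) on the arrays labelled wild type. Of the 4 nga-deficient arrays, 1 lay below every control, quadruple mutant replicate 1, and the other 3 lay within the control range. The nga-deficient mean was 6.75 ± 0.34 (SD, n = 4), against 6.97 ± 0.39 (n = 7), a log2 difference of -0.22 (SE 0.21). Dropping the 3 arrays of high actin difference, which include the lowest and the highest array of YUC2, made the difference 0.08. Its SD over the control arrays was larger than that of 84.2% of kept probe sets, so its level was uneven among the controls themselves.

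YUC6, the partner of YUC2 in stamens, had its lowest and its highest value of all 11 arrays in the quadruple mutant, at 5.79 on replicate 1 and 6.70 on replicate 2. The amiR-NGA arrays were close to each other at 6.43 and 6.42. The arrays labelled wild type ran between 6.02 and 6.53 (median 6.37), so the 3 groups overlapped. The nga-deficient mean was 6.34 ± 0.38 (SD, n = 4), against 6.28 ± 0.19 (n = 7), a log2 difference of 0.06 (SE 0.16). Among control arrays YUC6 was the steadiest member, its SD exceeding that of 34.1% of kept probe sets. Quadruple mutant replicate 1 is an array of high actin difference, and without it the quadruple mutant difference was 0.42 where all arrays gave -0.03.

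YUC4, the member tied by other work to organ tips, was dim, with 25.1% to 36.6% of the probe sets of an array below it. It measured 4.16 and 4.18 on the quadruple mutant arrays and 4.52 and 4.61 on the amiR-NGA arrays. The arrays labelled wild type ran between 4.22 and 4.96 (median 4.45). Both quadruple mutant arrays thus lay below every control, by a margin of 0.03, which was the case for 10.7% of kept probe sets, while both amiR-NGA arrays lay within the control range. The means were 4.17 ± 0.02 (SD, n = 2) in the quadruple mutant and 4.57 ± 0.06 (n = 2) in amiR-NGA, against 4.50 ± 0.29 (n = 7). The log2 difference was -0.33 (SE 0.19) for the quadruple mutant and 0.07 (SE 0.19) for amiR-NGA. The lower quartile of an array was 4.04 to 4.27, so YUC4 was measured near the dim end of each array, and a filter at log2 of 5 removed YUC4.

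Another family member, YUC11, had a probe set of 1 gene below the filter on low values, at a mean of 3.53 ± 0.12 (SD, n = 4) on the nga-deficient arrays and 3.66 ± 0.18 (n = 7) on the controls. The other 7 of the 11 family members, and all 5 entries of the TAA family, had no probe set of 1 gene in the annotation used and were not analysed here. The first step of the main route is therefore not described by these values.

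The 2 nga-deficient genotypes were set against each other, a comparison that did not choose the members. None of the 4 passed in this comparison (limma adjusted p between 0.767 and 0.996), where 24 of 17910 kept probe sets did (0.134%). AT4G37560 differed by -0.02 between the quadruple mutant and amiR-NGA (95% interval -0.69 to 0.64, adjusted p = 0.992), both genotypes being near the dim end of the arrays. YUC2 differed by -0.02 (95% interval -0.78 to 0.75, adjusted p = 0.996) and YUC6 by -0.18 (95% interval -0.75 to 0.39, adjusted p = 0.904). YUC4 had the largest difference of the 4, -0.40 (95% interval -0.93 to 0.13, adjusted p = 0.767), with the higher quadruple mutant array 0.34 below the lower amiR-NGA array. Both quadruple mutant arrays lay below both amiR-NGA arrays for 28.7% of kept probe sets. With 2 arrays a genotype these intervals are wide, and a missed threshold does not show that the genotypes had equal levels. Without quadruple mutant replicate 1, YUC2 differed by 0.37 and YUC6 by 0.27.

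**Figure D3:**
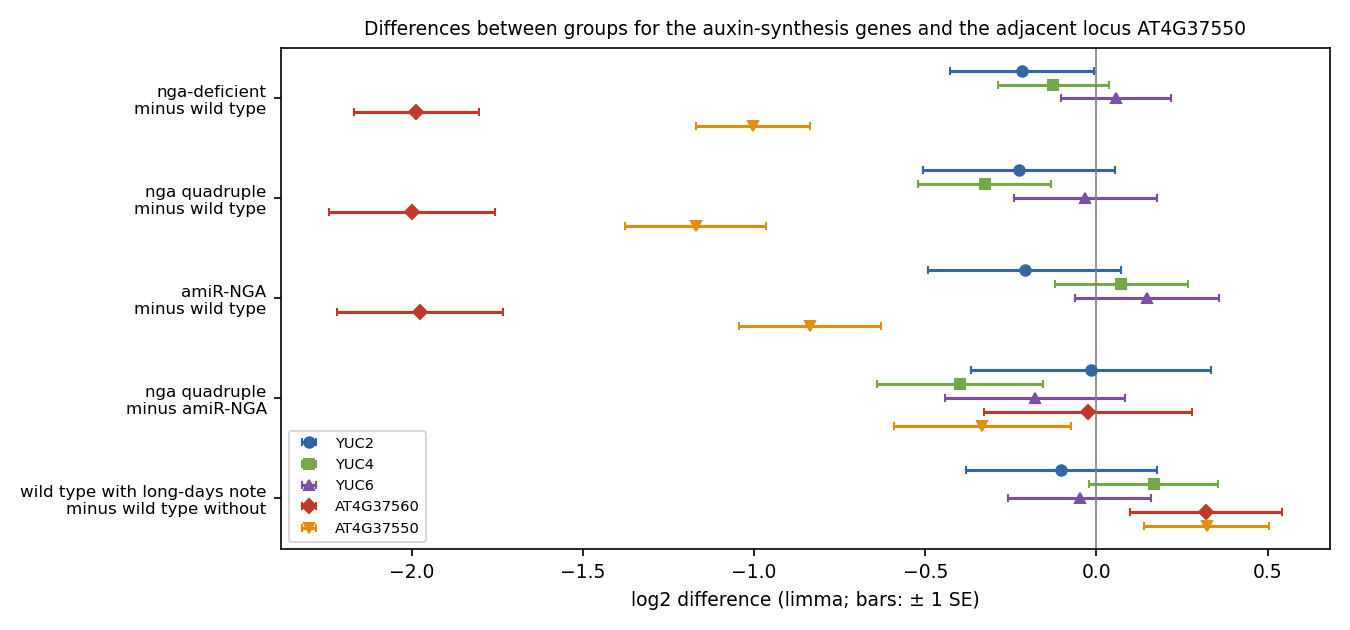
Fitted log2 differences (horizontal axis; bars are ± 1 SE from limma) of YUC2, YUC4, YUC6, AT4G37560 and the adjacent locus AT4G37550 in 5 comparisons, the first group named being the one a positive value favours. AT4G37560 sits at -1.97 to -2.00 in the 3 comparisons against the arrays labelled wild type and at -0.02 between the genotypes, while each YUC gene stays between -0.40 and 0.17 throughout.

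The long-days note divides the controls into 3 arrays with it and 4 without, and no nga-deficient array carries it. All 3 noted arrays had low NGA1, while the 4 others join replicate 1 of low NGA1 with replicates 5 to 7 of high NGA1. The note thus overlaps the NGA1 division, and the part of that division in the differences below was not tested. AT4G37560 averaged 6.61 ± 0.44 (SD, n = 3) on the noted arrays and 6.29 ± 0.25 (n = 4) on the others, a log2 difference of 0.32 (95% interval -0.17 to 0.81). YUC4 averaged 4.59 ± 0.19 (n = 3) on the noted arrays and 4.42 ± 0.36 (n = 4) on the others, with a difference of 0.17 (95% interval -0.25 to 0.58). For YUC2 the difference was -0.10 (95% interval -0.72 to 0.51) and for YUC6 it was -0.05 (95% interval -0.51 to 0.41). None of the 4 passed (limma adjusted p = 1.00 for each), and 0 of 17910 kept probe sets did (0%), with 397 at an unadjusted p below 0.05. Chance alone would give more than 397 on average. With the note as a covariate, the nga-deficient difference of AT4G37560 was -1.85.

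How the members varied together was examined over the 7 arrays labelled wild type. These share a label, but NGA1 was low on replicates 1 to 4 and high on replicates 5 to 7. Whether they share the same NGATHA state was not tested. YUC2 and YUC6 tended the same way, with Pearson's r of 0.687 (exact two-sided permutation p = 0.0764, adjusted p = 0.198 over 6 pairs) and Spearman's rho of 0.786 (exact adjusted p = 0.144). Without the 2 arrays farthest from the median of YUC2, r was 0.698. YUC4 ran the opposite way to both: r was -0.838 with YUC6 (exact p = 0.0222, adjusted p = 0.133; rho -0.607, adjusted p = 0.333) and -0.675 with YUC2 (exact p = 0.0992, adjusted p = 0.198; rho -0.464, adjusted p = 0.454). Leaving out the 2 arrays farthest from the median of the first gene of each pair gave -0.236 for YUC4 with YUC6 and -0.553 for YUC2 with YUC4. The relation of YUC4 with YUC6 therefore rests on wild-type replicates 4 and 7, where YUC4 was highest (4.81 and 4.96) and YUC6 lowest of the controls (6.02 and 6.04).

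None of the 6 pairs passed after adjustment over the controls, those of AT4G37560 with the YUC genes included. The r of AT4G37560 was 0.519 with YUC2 (exact p = 0.238, adjusted p = 0.357; rho 0.786, adjusted p = 0.144), the rho being the same as for YUC2 with YUC6. It was -0.121 with YUC4 (exact p = 0.825, adjusted p = 0.944; rho -0.036, adjusted p = 0.963) and 0.041 with YUC6 (exact p = 0.944, adjusted p = 0.944; rho 0.286, adjusted p = 0.667). Without the 2 farthest arrays these became 0.382, 0.750 and -0.656. Values so mobile over 7 arrays carry little about the pairs.

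The YUC pairs were then recomputed on other sets of arrays, a choice made after seeing the values. Over all 11 arrays, which fall in 3 genotypes, YUC2 and YUC6 had an r of 0.650 (permutation p = 0.0315, adjusted p = 0.0945 over 3 pairs; rho 0.700, adjusted p = 0.0649). YUC2 with YUC4 gave -0.395 and YUC4 with YUC6 gave -0.316 there (permutation adjusted p = 0.345 for each). On the 8 arrays without a high actin difference the r values were 0.822 for YUC2 with YUC6 (exact adjusted p = 0.0193), -0.827 for YUC2 with YUC4 (0.0204) and -0.796 for YUC4 with YUC6 (0.0204). Spearman's rho on those arrays was 0.810, -0.881 and -0.595 in the same order (exact adjusted p = 0.0327, 0.0217 and 0.132). Without the 2 farthest arrays r was 0.566, -0.582 and -0.247, which is a smaller value for each pair.

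**Figure D4:**
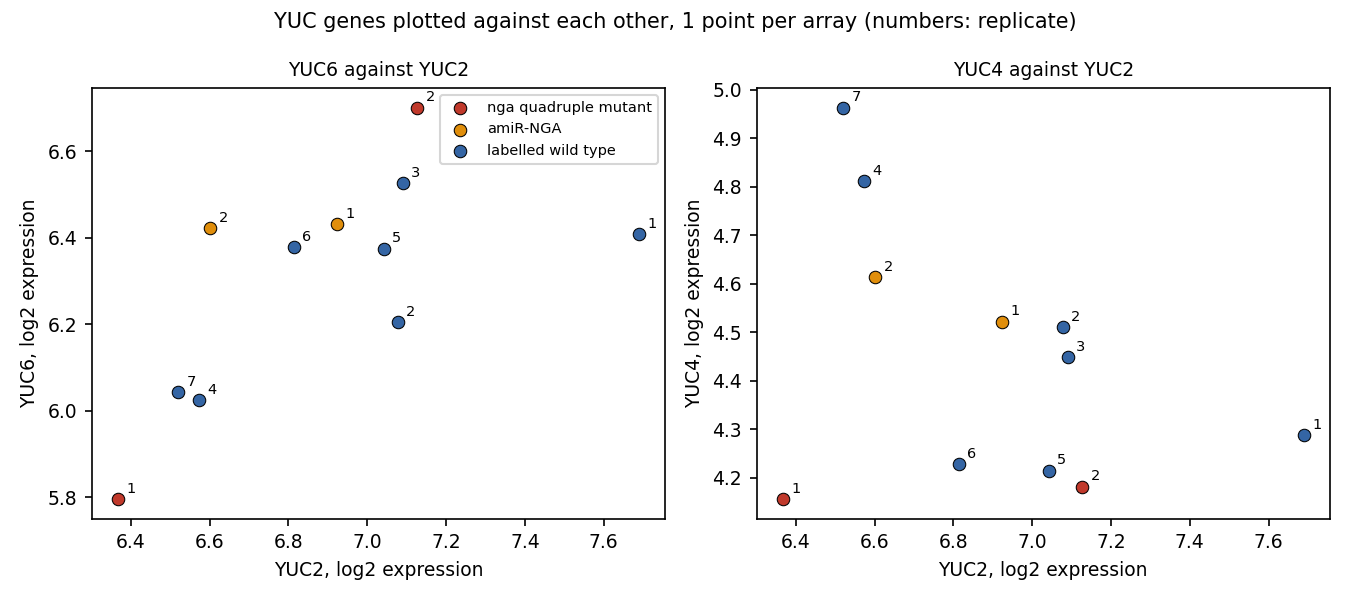
log2 expression of YUC6 (left panel) and YUC4 (right panel) against YUC2, 1 numbered point per array, coloured by group. YUC6 tends to be low where YUC2 is low, with quadruple mutant replicate 1 lowest for both, but amiR-NGA replicate 2 does not follow this (YUC2 6.60, YUC6 6.42). YUC4 is highest on wild-type replicates 7 and 4, where YUC2 is at 6.52 and 6.57.

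Other genes of auxin synthesis, inactivation, control and response were taken from lists of the pathway, with 16 kept members in all, the 4 above included. In nga-deficient inflorescences 0 were higher and 3 lower past the threshold, namely AT4G37560, AT4G37550 and WES1, beside 1.33% and 3.09% of all kept probe sets. The lists were chosen with earlier results of these data known, so the counts against the controls are a description and nothing is read from them. AT4G37560 was chosen with its difference known and stands in each of those counts of lower genes. The median log2 difference of the 16 was -0.07, and that of all kept probe sets was -0.02. The third gene was lost without the 3 arrays of high actin difference, which left 2 lower. In the quadruple mutant alone 0 of the 16 were higher and 4 lower, GH3.3 being added, beside 1.94% and 2.23% of kept probe sets. In amiR-NGA alone 0 were higher and 1 lower, AT4G37560 itself, beside 0.117% and 0.815%. Between the genotypes 0 of 16 passed in either direction, beside 0.101% higher and 0.0335% lower, and the same held between control arrays with and without the note.

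WES1 and GH3.3 belong to the GH3 family, whose enzymes join auxin to amino acids and many of whose transcripts are themselves induced by auxin. WES1 (AT4G27260) measured 7.87 and 9.52 on the quadruple mutant arrays and 9.26 and 9.54 on the amiR-NGA arrays, against 9.80 to 11.22 (median 10.15) on the arrays labelled wild type. All 4 were below every control, as for 4.32% of kept probe sets. WES1 fell by 1.31 on the log2 scale (SE 0.34, limma adjusted p = 0.0491). That call ended in 11 of the 15 alternatives run for it, among them leaving out wild-type replicate 1, 3, 4, 5 or 7, either quadruple mutant array or replicate 1 of amiR-NGA (adjusted p of 0.121 at most), the long-days covariate (0.144) and the replicate block (0.142). The size of the difference shrank to -0.86 without the 3 arrays of high actin difference.

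GH3.3 (AT2G23170) measured 6.89 and 7.97 on the quadruple mutant arrays and 8.89 and 9.23 on the amiR-NGA arrays, against 8.99 to 10.27 (median 9.59) on the arrays labelled wild type. Both quadruple mutant arrays lay below every control, as for 10.7% of kept probe sets, and amiR-NGA replicate 2 lay among the controls. With both genotypes as 1 group the log2 difference was -1.35 (SE 0.38, limma adjusted p = 0.0603), and leaving out amiR-NGA replicate 2 made it -1.68 (adjusted p = 0.0245). It was -0.90 without quadruple mutant replicate 1 (adjusted p = 0.145) and -0.88 without the 3 high-actin arrays (adjusted p = 0.0893). GH3.3 fell by 2.17 in the quadruple mutant (SE 0.32, adjusted p = 0.00606), and its difference in amiR-NGA was -0.53 (SE 0.32, adjusted p = 0.516). The difference between the genotypes was -1.64 (SE 0.40, adjusted p = 0.390), so the 2 were not shown to differ. The third GH3 gene kept, GH3.17, had a difference of 0.21 (adjusted p = 0.686), with 0.57 in the quadruple mutant and -0.16 in amiR-NGA.

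The remaining list members showed no call in nga-deficient inflorescences. SHI (AT5G66350), of the SHI/STY family that controls YUC genes, measured 5.24 and 4.47 on the quadruple mutant arrays and 4.62 and 4.85 on the amiR-NGA arrays, against 4.79 to 5.62 on the controls (difference -0.36, limma adjusted p = 0.226). SPL, a regulator of sporogenous cells that is known to repress YUC genes, differed by -0.03 (adjusted p = 0.960). The tryptophan-synthesis gene AT2G04400 differed by 0.26 (adjusted p = 0.250), and the auxin glucosyltransferase gene UGT74D1 by 0.37 (adjusted p = 0.362). For UGT74D1 the difference was 0.72 in the quadruple mutant and 0.02 in amiR-NGA. IAA20, IAA29 and IAA30, members of the Aux/IAA repressor family, differed by -0.01, -0.01 and 0.00. Of 101 list entries for auxin, most had no probe set of 1 gene in the annotation used: 0 of 15 for transport, 0 of 6 for the acetaldoxime route and 3 of 19 for perception and response.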

How the data were processed

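Expression was measured on 11 Affymetrix ATH1 arrays. The authors' deposited series table holds log2 values made with GCRMA in R 2.7.2, per the submitters' processing notes, and was used as deposited (range 2.61 to 14.37; array medians 6.08 to 6.27). Probe sets were named through GEO's platform annotation and updated through RefSeq (TAIR10.1): 13436 had 1 gene. After removal of 64 control probe sets, 17910 of 22746 passed the filter of log2 at least 4 on at least 4 arrays. Differences were fitted with limma 3.58.1 (lmFit, eBayes; R 4.3.3), two-sided, with Benjamini-Hochberg adjustment over all 17910 and a threshold of 0.05. Both nga genotypes against the arrays labelled wild type used a 2-group fit, each genotype and their difference a 3-group fit, and the long-days note a 4-group fit. Correlations used permutation tests, exact below 10 arrays and 100000 resamples otherwise. The fits were tested on simulated data. The number of arrays limits the precision, and no 2 arrays held identical values.

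The members and the gene lists were chosen with earlier results of these data known. Named are the members, list members by counts and, for AT4G37560, the 5 genes of closest profile. Same-numbered arrays did not deviate together throughout (correlation of deviations 0.285 between the genotypes, -0.274 to 0.174 between the quadruple mutant and the controls, -0.182 to 0.044 between amiR-NGA and the controls). Between the genotypes the value for other-numbered arrays, -0.285, is a mirror image by construction. The check therefore cannot decide whether replicate numbers pair samples. The main fits did not pair arrays by number, and the replicate block was run as an alternative. Alternatives covered filters, scaling, array weights, left-out arrays, covariates and blocks. Promoter motifs and protein identities were not analysed here.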

Additional observations from a re-analysis of the deposited data

Results flagged for a closer look

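Among 24 auxin-pathway and NGATHA genes, each tested in the 4 nga-deficient and the 7 control arrays, 4 of 48 groups held an array far from the others of its group. Chance alone gives about 5% of groups. WES1 was far lower on quadruple mutant replicate 1 (7.87) than on the other 3 nga-deficient arrays (9.26 to 9.54). IAA20 was far higher on quadruple mutant replicate 2 (4.30) than on the other 3, the lowest of which was at 4.07. AT1G14120, of the auxin-inactivation list and below the filter on low values, was highest on quadruple mutant replicate 1 (3.65). UGT84B1, an auxin glucosyltransferase gene also below that filter, was highest on wild-type replicate 2 (4.15). None of YUC2, YUC4, YUC6 and AT4G37560 had such an array. Quadruple mutant replicate 1 and wild-type replicate 2 are arrays of high actin difference, and the part of that in these values was not tested.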

How the results depend on the processing

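The nga-deficient log2 difference of AT4G37560, a description, was -2.07 to -1.87 with 1 array left out and -2.45 with the replicate block. With 1 array left out it ran from -2.22 to -1.73 in amiR-NGA, not past the threshold without either amiR-NGA array. It ran from -2.13 to -1.87 in the quadruple mutant, not past the threshold without quadruple mutant replicate 1. Leaving out an array here leaves 1 array in a group, assumed to vary like the others.

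Signs turned only among differences that were not past the threshold. Without the arrays of high actin difference, YUC2 was 0.076 in the nga-deficient group, 0.32 in the quadruple mutant, 0.37 between the genotypes and 0.040 between noted and other controls. YUC6 was then 0.43 in the quadruple mutant, 0.27 between the genotypes and 0.011 between noted and other controls, and AT4G37560 was 0.10 between the genotypes. Median centring made the differences between the genotypes 0.011 for AT4G37560 and 0.020 for YUC2, and quantile normalization made that of YUC2 0.024. Array weights made the noted against the other controls 0.086 for YUC2 and 0.10 for YUC6. With 1 array left out, YUC2 ran from -0.61 to 0.16 in the quadruple mutant, from -0.40 to 0.37 between the genotypes and from -0.27 to 0.12 for the note. YUC6 ran from -0.063 to 0.24 in the nga-deficient group, from -0.49 to 0.42 in the quadruple mutant, from -0.63 to 0.27 between the genotypes and from -0.19 to 0.065 for the note. AT4G37560 ran from -0.27 to 0.22 between the genotypes.

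Counts over all probe sets moved most. The nga-deficient count of 792 became 2977 with array weights, 1932 with the replicate block, 256 with the long-days covariate, 141 and 229 against controls without and with the note, 187 with a fold of 2, and 229 to 973 with 1 array left out. The 747 of the quadruple mutant became 124 without the arrays of high actin difference, 252 with the replicate block, 236 with the covariate, 378 with a fold of 2, and 39 to 963. The 167 of amiR-NGA became 1650, 420, 859, 81 and 96 with array weights, without the high actin arrays, with the replicate block, with the covariate and with a fold of 2, and 5 to 212. Between the genotypes 24 became 45 with array weights, 2 with the replicate block, 2 with these groups alone, and 13 to 179. For the note, 0 became 654 with array weights, 1 without the high actin arrays, and 0 to 2. Median centring turned the nga-deficient split of 239 higher and 553 lower into 315 and 467.

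Quantile normalization gave r of -0.815 for YUC2 with YUC4, 0.838 for YUC2 with YUC6 and -0.903 for YUC4 with YUC6 (exact adjusted p = 0.0405 each), and the 8 arrays without a high actin difference gave -0.827, 0.822 and -0.796. YUC4 with AT4G37560 was 0.062 with centring and -0.287 to 0.218 with 1 array left out, and YUC6 with AT4G37560 was -0.210 to 0.375. The cause was not tested for any of these shifts. The replicate block moved none of the 4 members across the threshold; it cannot be used for the note or the pairs, which lie within 1 group. YUC4 has no value with the filter at log2 of 5.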

Other observations

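YUC2 and YUC6 act in stamens, so the YUC genes were set beside 8 anther and pollen markers, a comparison chosen after the values were seen. YUC2 and YUC6 were lowest of all 11 arrays on quadruple mutant replicate 1, an array of high actin difference. SPL (6.65) and the tapetal genes AMS and A9 (5.95 and 11.59) were lowest there as well. ACT11 (9.265) and the pollen genes AGL66 (6.30), AGL104 (6.39) and PLIM2B (8.07) were highest there. ACT12 was not the highest there, at 5.115 against 5.124 on amiR-NGA replicate 1. Of 24 relations over the 11 arrays, 0 passed after adjustment, and 6 had an unadjusted permutation p below 0.05. YUC2 with AMS gave an r of 0.702 (permutation p = 0.0173, adjusted p = 0.104; rho 0.745, adjusted p = 0.126), and YUC4 with AGL104 gave -0.731 (permutation p = 0.00919, adjusted p = 0.104; rho -0.809, adjusted p = 0.0866). Without the 2 arrays farthest from the median of the YUC gene these were 0.787 and -0.623. Over the 7 arrays labelled wild type 0 of 24 passed as well (lowest exact adjusted p = 0.0952). On the 8 arrays without a high actin difference, YUC4 with AMS gave -0.914 (exact adjusted p = 0.0262; rho adjusted p = 0.105). The part of flower stage or of the number of anthers sampled in the YUC values was not tested.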
